A study of Mus musculus with 6 samples.

Results

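Inhibitory checkpoint receptors are surface proteins that restrain an activated T cell. PD-1, BTLA and TIGIT carry tyrosine motifs in the cytoplasm that recruit phosphatases once the receptor is engaged, CTLA-4 competes with CD28 for the ligands CD80 and CD86, and LAG-3 binds major histocompatibility complex class II. Several of these genes are switched on by signals from the T cell receptor (TCR), so that their transcripts are common readouts of T cell activation. The mRNA of 10 mouse genes of this kind was examined here: Pdcd1 (PD-1), Ctla4, Lag3, Havcr2 (TIM-3), Tigit, Btla, Cd160, Cd274 (PD-L1), Cd5 and Cd200. They are given as a list of gene symbols and were found in the gene table by Ensembl identifier. They are 10 of 52550 genes listed and of 14786 with enough counts to be tested, and all 10 passed that filter. Cd274 and Cd200 encode ligands that activated T cells themselves carry, whereas the others encode receptors.

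The RNA came from splenic CD3+ T cells of wild-type mice, activated with antibodies to CD3 and CD28 and collected at 24 h. The first group (TCR alone) has 3 samples with no addition, and the other (TCR+DMGV) has 3 samples with DMGV (dimethylguanidino valeric acid) at 100 ng/ml. The sample labels name the agent DMGV. The study's text names it LNY1, a factor from fibroblast-conditioned medium, for the same dose and time. The study equates LNY1 with the dimethylarginines ADMA and SDMA, which the enzyme AGXT2 converts to DMGV. In its other cell cultures it gives DMGV doses in µM. Which of these agents the cells received cannot be told from the sources used here, and the labels' name is used. All 6 samples were activated and no resting cells were analysed here, so the values say nothing of how far activation itself moved these genes. The cells were a bulk population purified on magnetic beads. The labels call the 3 samples of a group biological replicates without naming the mice, and p-values measure the spread between these samples.

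The gene counts of a sample summed to between 37758725 and 43718867, which is above the depth of 25000000 to 35000000 reads that the labels give. The counts were made from transcript coverage and are estimates, not tallies of single molecules. TCR alone replicate 3 and TCR+DMGV replicate 1 stood apart from the other 4 samples. They had scores of 42.1 and 42.9 on the first principal component of log2 CPM (counts scaled to the depth of each sample), which held 32.2% of the variance, while the other 4 lay between -34.9 and -10.5. In the same pair of samples genes of high GC content read higher, by 0.228 and 0.155 on the log2 scale per 10% of GC, while the slope in the other 4 was between -0.154 and -0.0307. There was 1 such sample in each group. For those of the 10 genes that were lowest in both, the changes are given with and without them.

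The label of T cells was checked against markers. All 14 T cell markers were expressed, led by Trbc2, a constant region of the TCR beta chain, at 643 FPKM in the mean of the 6 samples (fragments scaled to gene length and to depth, a level per length). Summed over the list, the level was 2074, 2079 and 2427 FPKM in TCR alone and 2498, 2249 and 2343 FPKM in TCR+DMGV. Of 9 neutrophil markers 8 were at 0 in every sample, and Csf3r had at most 4 counts. The 12 myeloid markers summed to 3.24 ± 0.877 FPKM in TCR alone and 3.27 ± 0.597 FPKM in TCR+DMGV (SD, n = 3), with Csf1r at 1.42 FPKM the most abundant and Cd14 and Cd163 at 0. Dendritic cell markers summed to 5.64 ± 1.202 and 6.23 ± 1.06 FPKM, led by H2-Ab1 at 2.52 FPKM, with Cd209a, Clec9a and Siglech at 0. NK cell markers summed to 21.2 ± 1.92 and 23.1 ± 1.59 FPKM, led by Eomes at 13.2 FPKM, a transcription factor that CD8 T cells also express. B cell markers summed to 123 ± 8.03 and 119 ± 3.82 FPKM, of which Ighm, the heavy chain of IgM, gave 115 FPKM. Cd79b stood at 3.85, Ighd at 1.19 and Cd79a at 0.102 FPKM. The 9 erythroid markers summed to 5.54, 5.91 and 5.10 FPKM in TCR alone and 2.43, 4.69 and 4.19 FPKM in TCR+DMGV, without overlap, with Slc4a1 at 0. The most abundant, Hbb-bs at 1.39 FPKM, overlapped between the groups, whereas Hba-a1 (1.35, 1.12 and 1.15 against 0.267, 0.301 and 0.940 FPKM) and Hba-a2 (1.69, 1.22 and 1.35 against 0.395, 0.427 and 0.948 FPKM) did not. Hba-a1 had only 11 to 47 counts in a sample and Hba-a2 14 to 49. In CPM the groups did not overlap for 2 of the 6 erythroid markers tested, beside 8.86% of all tested genes. The T cell and B cell lists also held 2 such genes each, of 14 and 8 tested. The 7 regulatory T cell markers summed to 39.9 ± 4.36 and 41.3 ± 0.368 FPKM, led by Capg at 23.1 FPKM. The part of any of these cells in the values of the receptors was not tested.

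The 10 genes spanned a 102-fold range of level. Cd5, a scavenger-type receptor that dampens TCR signalling, was the most abundant with 212 FPKM in the mean of the 6 samples and exceeded 98.7% of the tested genes. Lag3 followed at 82.9 FPKM and Tigit at 66.2 FPKM. In the middle of the order stood Btla at 40.6, Pdcd1 at 35.2, Cd200 at 25.1, Ctla4 at 21.7 and Cd274 at 21.5 FPKM. Cd160, a receptor anchored by a lipid, had 14.95 FPKM. Havcr2 was the least abundant with 2.07 FPKM, above 37.1% of the tested genes. Havcr2 had 239 to 291 counts in a sample.

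The order was the same in all 6 samples for Cd5, Lag3 and Tigit, whose ranges did not overlap with those of their neighbours, and for Havcr2 at the lower end. Cd160 was below Cd274 and above Havcr2 in all 6 samples, but it was above Ctla4 in TCR+DMGV replicate 1 and above Cd200 in TCR alone replicate 2. Btla was above Pdcd1 in 4 of 6 samples and below it in TCR alone replicate 3 and TCR+DMGV replicate 1. Cd200 was above Ctla4 in 5 of 6 samples. Ctla4 and Cd274 could not be ordered, with Ctla4 the higher in 3 of 6 samples. The order depended on the length behind the FPKM for 3 genes. The counts and FPKM of Cd160 together correspond to a length of 2972 bases, although its main transcript, Cd160-201, has 1121. When the FPKM of a gene's transcripts were summed instead, Cd160 rose to 33.5 FPKM and the seventh place, Cd200 to 51.6 FPKM and the fourth place, and Ctla4 to 26.9 FPKM. The plot of FPKM by gene shows the spread behind each level.

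**Figure D1:**
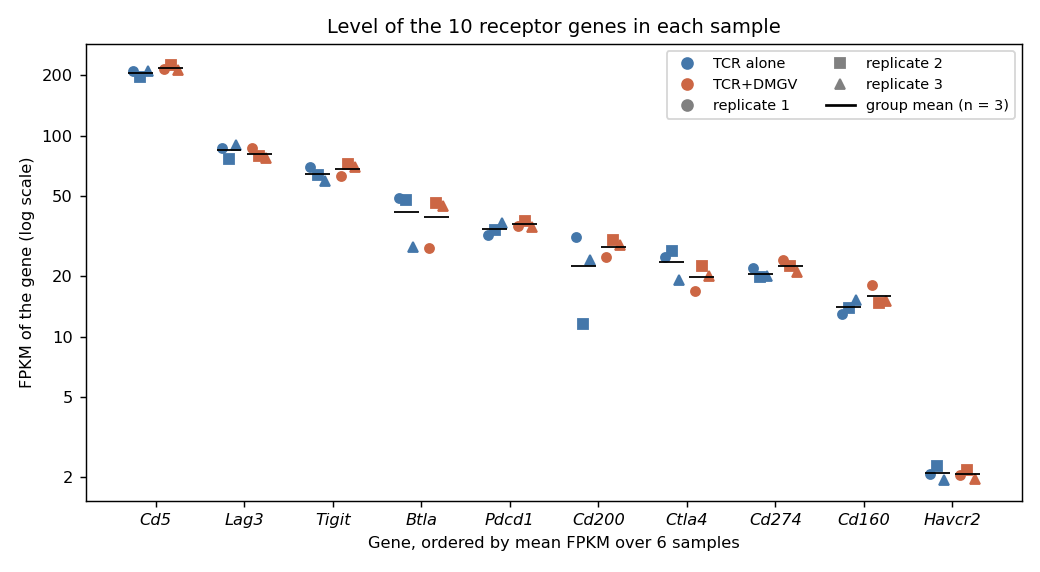
Level of each gene in each sample, in FPKM on a log scale, with genes ordered by their mean. Colours give the group, symbols the replicate, and bars the group mean of 3 samples. Cd5 lies near 200 FPKM and Havcr2 near 2 FPKM in every sample, and the groups overlap in the middle of the order.

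None of the 10 genes passed the test of a change between TCR alone and TCR+DMGV across all genes. In edgeR's quasi-likelihood test with Benjamini-Hochberg adjustment, 0 of 10 passed the adjusted threshold of 0.05, against 2 of 14786 genes in all (0.0135%). At an unadjusted p under 0.05 there were again 0 of 10, where all genes gave 3.19%, and DESeq2 also called 0 of 10. The adjusted p was 0.9995 for each. The estimates were above 0 for 6 genes, beside 50.6% of all tested genes, and below 0 for 4, and their median was 0.10 on the log2 scale beside 0.0024 over all tested genes. The 14 T cell markers had a median of 0.11. The 95% interval of the log2 fold change lay within 0.5 of 0 on either side for 7 of the 10 genes and within 1 for 9. A change of 2-fold thus lay outside the interval of every gene except Cd200. In bulk RNA, fewer cells of a type and less RNA per cell cannot be told apart.

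**Figure D2:**
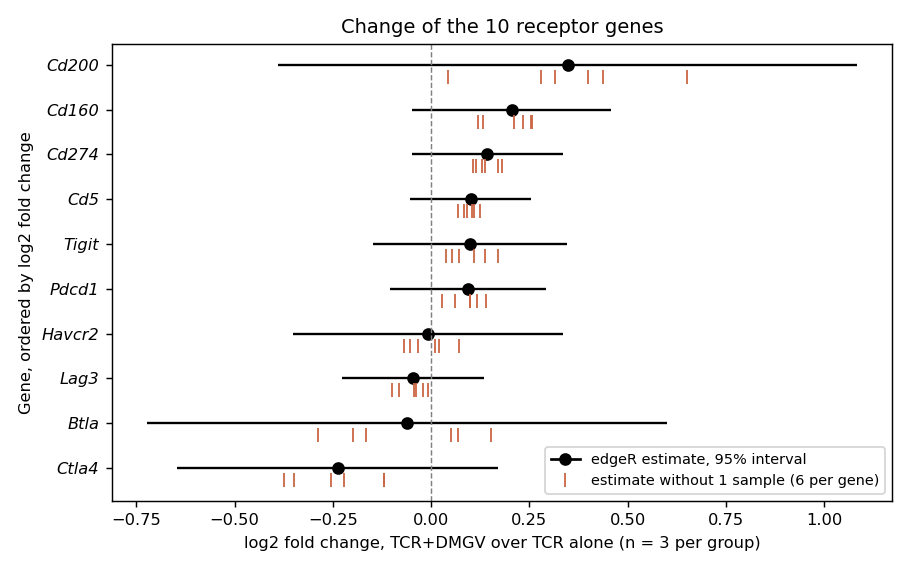
Log2 fold change of each gene, TCR+DMGV over TCR alone, with 3 samples per group. Points and lines are the edgeR estimate and its 95% interval, and orange ticks are the estimates with each of the 6 samples left out. Every interval crosses 0, and the ticks of Btla and Havcr2 fall on both sides of 0.

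Of the receptors that recruit phosphatases, Pdcd1 was measured at 68.9, 74.9 and 78.0 CPM in TCR alone and at 75.9, 82.5 and 78.3 CPM in TCR+DMGV. The groups overlapped, since TCR alone replicate 3 was above TCR+DMGV replicate 1. Its log2 fold change was 0.09 ± 0.08 (SE), with an interval from -0.10 to 0.29. Without TCR alone replicate 1 the estimate was 0.03, and without both samples that stood apart it was 0.16. Tigit, which binds the poliovirus receptor family, read 74.6, 70.6 and 62.8 CPM against 66.6, 79.1 and 77.1 CPM, and its log2 fold change was 0.10 ± 0.11. Within each group the lowest Tigit value came from a sample that stood apart. Its log2 fold change was 0.04 when TCR alone replicate 3 was left out, 0.17 when TCR+DMGV replicate 1 was left out and 0.11 when both were. Cd5 read 481, 466 and 478 CPM in TCR alone and 490, 532 and 507 CPM in TCR+DMGV. The groups did not overlap, but they were 1.07-fold apart, with a log2 fold change of 0.10 ± 0.07 and an interval from -0.05 to 0.25.

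Btla, the receptor for HVEM, had 178, 179 and 99.6 CPM in TCR alone and 99.1, 172 and 166 CPM in TCR+DMGV. The low value of each group belonged to TCR alone replicate 3 and TCR+DMGV replicate 1, and without them the remaining 4 samples lay between 166 and 179 CPM. The log2 fold change was -0.06 ± 0.28 with an interval from -0.72 to 0.60. It was 0.15 without TCR+DMGV replicate 1 and -0.29 without TCR alone replicate 3, so that its direction followed the sample left out. With both of them left out it was -0.07.

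Cd160 shares the ligand HVEM with Btla. It read 38.02, 41.9 and 43.9 CPM in TCR alone and 52.8, 44.3 and 45.6 CPM in TCR+DMGV. Every TCR+DMGV sample was above every TCR alone sample, by 0.366 CPM between the nearest pair. Its log2 fold change was 0.20 ± 0.11 (interval -0.05 to 0.46, unadjusted p = 0.0975 and adjusted p = 0.9995 in edgeR). Leaving out TCR+DMGV replicate 1, the highest sample, lowered the estimate to 0.12. Cd160 and Cd5 were the 2 of 10 genes whose groups did not overlap, where 8.86% of all tested genes had such groups. The exact permutation test of 3 samples against 3 gave p = 0.1 for each, the smallest p it can give. In FPKM the groups of Cd160 overlapped and 1 of 10 genes, Cd5, had groups apart. The share over all tested genes was computed in CPM only.

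Ctla4 read 64.4, 71.5 and 49.0 CPM in TCR alone and 43.2, 60.0 and 53.4 CPM in TCR+DMGV. As with Btla, the lowest sample of each group was TCR alone replicate 3 or TCR+DMGV replicate 1. The groups overlapped and the log2 fold change was -0.24 ± 0.17, with an interval from -0.65 to 0.17. Leaving out TCR alone replicate 3 gave -0.37, leaving out TCR+DMGV replicate 1 gave -0.12 and leaving out both gave -0.26. The sign held in all 18 alternative settings, but these refit the same 6 samples or parts of them and are not independent.

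Lag3 and Havcr2 encode receptors for class II molecules and for galectins. Lag3 read 204, 185 and 209 CPM in TCR alone and 202, 192 and 187 CPM in TCR+DMGV, with a log2 fold change of -0.05 ± 0.08. That estimate lay between -0.10 and -0.01 with a sample left out, the ends being those without replicates 2 and 3 of TCR alone. Havcr2, whose product also binds phosphatidylserine, read 6.29, 7.08 and 5.77 CPM against 6.18, 6.76 and 6.11 CPM. Its log2 fold change was -0.01 ± 0.15, and the range of TCR+DMGV lay within that of TCR alone.

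The ligands among the 10 genes were Cd274 and Cd200. Cd274, the ligand of PD-1, read 88.3, 82.3 and 79.4 CPM in TCR alone and 96.2, 92.6 and 87.1 CPM in TCR+DMGV. The groups touched, since TCR alone replicate 1 was above TCR+DMGV replicate 3, and the log2 fold change was 0.14 ± 0.08 with an interval from -0.05 to 0.33. It was 0.08 without both samples that stood apart. Cd200, whose receptor sits mainly on myeloid cells, read 116, 44.1 and 88.0 CPM in TCR alone and 91.0, 115 and 110 CPM in TCR+DMGV. TCR alone replicate 2 had less than any other sample, while TCR alone replicate 1 had the most of all 6. The log2 fold change of 0.35 ± 0.31 was the largest of the 10 genes. Leaving out TCR alone replicate 2 lowered it to 0.04, and leaving out TCR alone replicate 1 raised it to 0.65.

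The spread between samples of a group differed among the 10 genes. Cd200 had a standard deviation within groups of 0.524 on the log2 scale, larger than 96.8% of 1726 genes of like level (within 0.5 log2 CPM), and Btla one of 0.467, larger than 96.0% of 1248 such genes. Ctla4 followed with 0.262. Cd5, at 0.0455, varied least. The difference between the samples that stood apart and the other 4 was -0.81 for Btla, -0.43 for Ctla4 and -0.22 for Tigit on the log2 scale. It was 0.19 for Cd160 and 0.10 for Lag3. Btla and Ctla4 have the lowest GC content of the 10 genes, with 40.7% and 42.6% in their longest annotated transcript, and Lag3 has the highest with 59.9%. Genes of like level and GC content, within 2% of that of Btla, had a median difference of -0.36 between the same samples, and 9.94% of them lay lower than Btla. Tigit, Cd160 and Cd5 went against the genes of their own level and GC content. Tigit, with 52.3% GC, differed by -0.22 where such genes had a median of 0.07, and Cd160, with 45.1% GC, by 0.19 where they had -0.11. Cd5, with 56.8% GC, differed by -0.04 where such genes had 0.08. The part of GC content in the spread of Btla was not tested beyond the correction reported among the alternatives, under which the log2 fold change of Btla was 0.01.

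**Figure D3:**
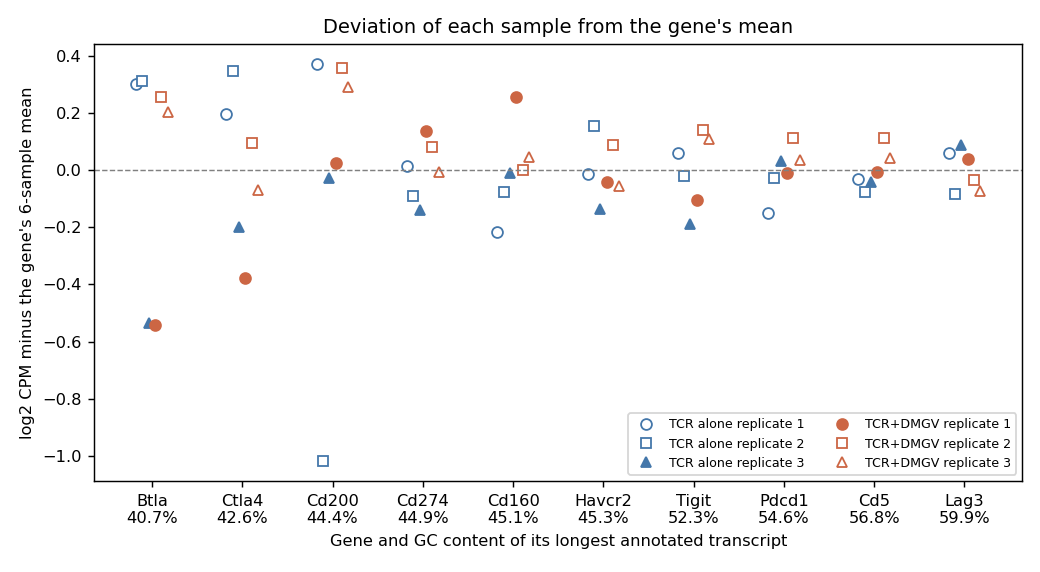
Log2 CPM of each sample minus the mean of the gene over 6 samples, with genes ordered by the GC content of their longest annotated transcript. Filled symbols mark the samples that stood apart, TCR alone replicate 3 and TCR+DMGV replicate 1. They lie lowest for Btla and Ctla4, and the Cd200 value of TCR alone replicate 2 is the lowest point of all.

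Over the 6 samples Btla ran parallel to Ctla4 (Pearson r = 0.875 of log2 CPM) and to Tigit (r = 0.847), and Ctla4 ran against Cd160 (r = -0.808). These were the only pairs of the 45 with r beyond 0.8 in size, and the median over all pairs was 0.05. The pairs share the same libraries, among them the samples that stood apart, and no r was computed on the 4 samples that remain without them. Among 8664 genes with at least 10 CPM, those most like Btla were Fastkd2 (r = 0.9997) and Ssb (r = 0.9996). Swt1 and Phf10 were most like Ctla4, Phgdh and Psmd4 most like Pdcd1, and Asxl1 and Prdm11 most like Lag3, all with r of at least 0.982. For Cd5 they were Cul4a and Cops7a, for Cd160 Fam220a and Adsl, for Cd274 Utp15 and Adat1, for Cd200 Ccdc127 and Gm20402, for Tigit 6820431F20Rik and Lilrb4a, and for Havcr2 Ndc80 and Snhg6. With 6 samples and this many candidates such values are a description only.

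The transcript table listed 27 transcripts of the 10 genes, of which 26 had counts. Pdcd1, Tigit, Cd274 and Cd5 have a single transcript each in the table, and Lag3-201 and Havcr2-201 held nearly all and all of the counts of their genes, with Havcr2-202 at 0 in every sample. Transcripts of the same gene shared the reads of common exons, and the division between them is an estimate. Of 38401 transcripts tested in edgeR 0 passed the adjusted threshold (0%), and 22 of the 27 were among those tested. At an unadjusted p under 0.05 there was 1 of 22, Cd200-206, with 5 to 102 counts in a sample and a log2 fold change of 2.26 ± 0.88 (adjusted p = 1), beside 3.22% of all transcripts. It is annotated as a target of nonsense-mediated decay and is named here after its value was seen.

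Btla was divided almost evenly between its transcripts. Btla-202 held 60.0%, 47.5% and 56.2% of the counts without DMGV and 51.7%, 50.03% and 57.5% with it, and Btla-201 held the rest. The groups overlapped (exact permutation p = 0.9, adjusted p = 1 over the 6 shares compared). Both transcripts were low in the samples that stood apart, with 2317 and 2282 counts for Btla-202 and 1805 and 2130 counts for Btla-201, where the other 4 samples had 3472 to 4055 and 2709 to 3836. The coding sequences are 915 and 918 bases long. They differ at the start of exon 4, which in Btla-201 begins 3 bases earlier, and the last exon is 2544 bases long in Btla-202 and 910 in Btla-201. The junction of exons 3 and 4 is shown from the GENCODE M21 transcripts (chr16:45242730-45244167, GRCm38, + strand, intron left out), with the additional bases in capitals.
Btla-201: acccactaataaCAGtatctgacatcc
Btla-202: acccactaataatatctgacatcc

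Ctla4-201, which encodes the membrane-bound receptor, held 94.5% to 99.4% of the Ctla4 counts. Ctla4-202 lacks exon 3, the exon that encodes the membrane-spanning segment, and corresponds to the soluble form of CTLA-4. It was assigned 13, 13 and 31 counts without DMGV and 105, 24 and 13 counts with it. The highest share was 5.46% in TCR+DMGV replicate 1, and no other sample was above 1.53%. The samples that stood apart were the highest of their groups. The groups overlapped, and the log2 fold change was 1.201 ± 0.87 (edgeR, adjusted p = 1). It was -0.10 when TCR+DMGV replicate 1 was left out and 1.70 when TCR alone replicate 3 was. The skipped exon is 110 bases long (chr1:60913219-60913328, GRCm38, + strand), so that its loss shifts the reading frame. It is shown because its presence separates the membrane-bound from the soluble form, and beside it stands the junction that replaces it in Ctla4-202 (chr1:60912756-60914627, intron and skipped exon left out), with the bases of the following exon in capitals.
Ctla4-201 exon 3: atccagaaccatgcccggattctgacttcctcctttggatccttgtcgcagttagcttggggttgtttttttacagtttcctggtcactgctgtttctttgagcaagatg
Ctla4-202 junction: agatttatgtcattgCTAAAGAAAAGAAGT

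Cd160 has 2 annotated starts, 14830 bases apart. Cd160-201, which begins at the inner start, held 90.3% ± 3.13 of the counts without DMGV and 91.2% ± 2.49 with it (SD, n = 3; exact permutation p = 0.6, adjusted p = 1). Cd160-202 and Cd160-203 begin at the outer start and together held 13.2%, 8.48% and 7.32% in TCR alone and 8.26%, 6.56% and 11.5% in TCR+DMGV. Nearly all of this was Cd160-203, with 113 to 191 counts, which lacks exon 4 of Cd160-201. That exon has 132 bases, a multiple of the codon length. In all 6 samples the inner start thus carried most of the estimate, and the groups overlapped.
Cd160-201 exon 4 (chr3:96802277-96802408, GRCm38, - strand): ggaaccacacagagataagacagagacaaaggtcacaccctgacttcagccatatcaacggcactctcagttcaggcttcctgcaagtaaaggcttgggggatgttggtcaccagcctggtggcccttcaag

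The 250 bases before each start of Cd160 (RefSeq, GRCm38.p6, - strand) are shown because the counts were so unequally divided between them. Capitals mark GGAAA, the core of sites for NFAT, a factor activated by calcium signals of the TCR, or its reverse complement. The AP-1 site TGANTCA, which reads alike on both strands, was searched too and was in neither. The inner window held 1 GGAAA and the outer window none.
Cd160 inner start (chr3:96814522-96814771): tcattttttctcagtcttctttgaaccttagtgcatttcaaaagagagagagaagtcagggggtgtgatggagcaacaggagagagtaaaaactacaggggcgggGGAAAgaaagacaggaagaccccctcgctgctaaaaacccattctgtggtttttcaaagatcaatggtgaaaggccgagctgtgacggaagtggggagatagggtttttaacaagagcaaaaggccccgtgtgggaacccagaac
Cd160 outer start (chr3:96829352-96829601): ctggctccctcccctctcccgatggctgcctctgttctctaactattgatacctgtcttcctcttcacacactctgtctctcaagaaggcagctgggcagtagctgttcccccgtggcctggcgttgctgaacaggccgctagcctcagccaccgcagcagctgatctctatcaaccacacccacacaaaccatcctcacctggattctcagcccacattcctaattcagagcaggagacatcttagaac

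Windows were found for 9 of the 10 genes, 10 windows in all. GGAAA was in 5 of these 10 windows, namely those of Pdcd1 and Tigit with 2 matches each and of Ctla4, Cd274 and the inner start of Cd160 with 1, where 55.6% of 32817 mouse promoter windows of the same length hold it. TGANTCA was in 1 of 10, that of Havcr2, beside 6.75% of all windows. The motifs do not overlap each other in these windows. Both shares are a description of letters and not of binding.

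Cd200 had 11 transcripts. Cd200-202, which has the longest coding sequence among them (834 bases), held 77.9% ± 8.41 in TCR alone and 83.0% ± 3.82 in TCR+DMGV (SD, n = 3; exact permutation p = 0.5, adjusted p = 1). In TCR alone replicate 2 it had 1227 counts, 68.2% of the gene, against 2995 to 3922 in the other 5 samples. The low Cd200 level of that sample was thus mainly a low count of Cd200-202. Cd200-209, annotated without a coding sequence, had 215 to 440 counts. Cd200-201 ranged from 0 counts in TCR+DMGV replicate 1 to 448 in TCR+DMGV replicate 2.

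**Figure D4:**
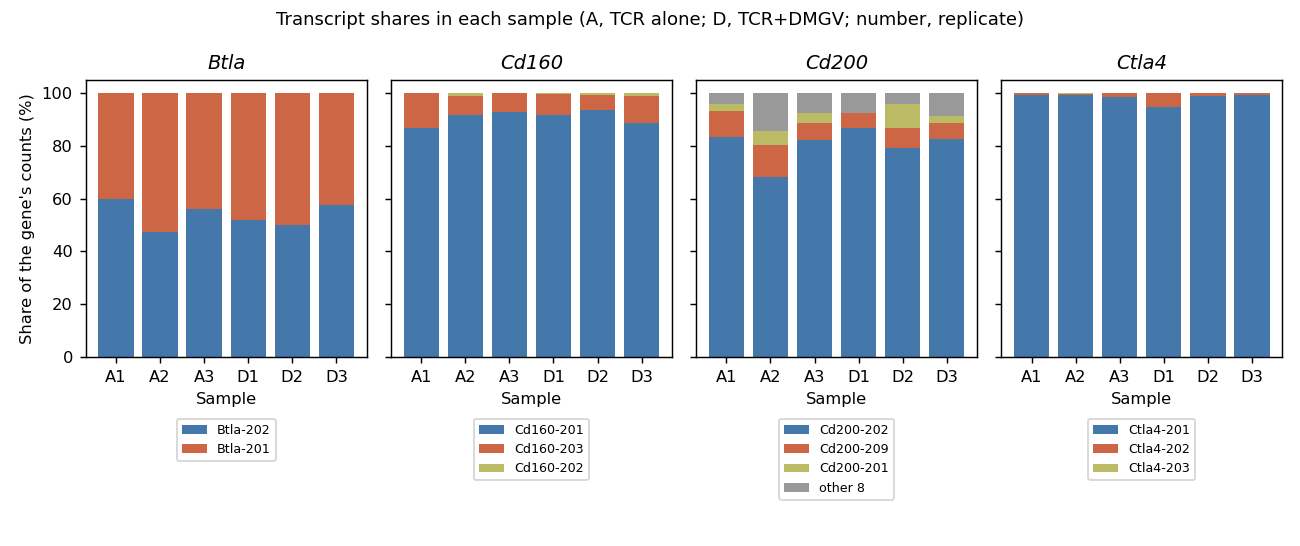
Share of each gene's counts assigned to its transcripts, in percent, in the 3 samples of TCR alone (A) and the 3 of TCR+DMGV (D). Transcripts beyond the 3 most abundant of Cd200 are summed. Btla is divided almost evenly, Cd160-201 and Ctla4-201 hold most of the counts of their genes, and Cd200-202 is lowest in TCR alone replicate 2.

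Where the genes overlap others, the assignment of reads has a limit. Cd160 (chr3:96798763-96829351 in GENCODE M21, GRCm38) overlaps Pdzk1 on the opposite strand, which had 184 to 325 counts in a sample, and Cd274 (chr19:29367455-29388095) overlaps the antisense gene AC119228.1. Ctla4 (chr1:60887000-60915832) contains the pseudogene Rpl18-ps1 on its own strand, which had 19 to 32 counts. Whether strand was used in counting is not given in the sources used here, so reads from these overlaps cannot be told apart.

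The ligands of the receptors were tested alongside, in a list that also held Cd200r1, the gene of the receptor of CD200. Of the 16 genes of this list 14 were tested and 0 passed the threshold in either direction (0 at an unadjusted p under 0.05), with a median log2 fold change of 0.12. Hmgb1 and Lgals9 encode ligands of TIM-3, and Lgals9, the gene of galectin-9, was measured at 28.1 ± 5.67 FPKM in TCR alone and 29.9 ± 3.27 FPKM in TCR+DMGV (SD, n = 3). Tnfsf14 and Tnfrsf14, the genes of LIGHT and HVEM, stood at 24.7 ± 2.38 and 8.93 ± 1.55 FPKM in TCR alone. In contrast, Cd80 and Cd86, the ligands of CTLA-4, were at 0.290 ± 0.172 and 0.464 ± 0.0325 FPKM in TCR alone, and Fgl1, a ligand of LAG-3, was at 0. The ligands of smallest p were Hmgb1 with -0.25 ± 0.15, Pdcd1lg2, the gene of PD-L2, with 0.15 ± 0.12 and Lgals3 with 0.20 ± 0.18 on the log2 scale. A single sample moved each of them. Hmgb1 ran from -0.41 without TCR alone replicate 3 to -0.14 without TCR alone replicate 2, Pdcd1lg2 from 0.05 without TCR alone replicate 1 to 0.23 without TCR alone replicate 2, and Lgals3 from 0.03 without TCR alone replicate 1 to 0.40 without TCR alone replicate 3.

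Among 17 other inhibitory genes, mostly receptors, 13 were tested, 0 passed the threshold and 0 had an unadjusted p under 0.05, with a median of 0.08. Cd96, a receptor related to TIGIT by its ligand, read 48.2, 51.6 and 47.9 CPM in TCR alone and 54.4, 54.3 and 60.9 CPM in TCR+DMGV. Its groups did not overlap, as for 2 of the 13 tested genes of this list and 8.86% of all tested genes, and its log2 fold change was 0.20 ± 0.09 (edgeR, adjusted p = 0.9995). Klrc1, which encodes NKG2A, had 0.33 ± 0.16 and 0.21 when TCR alone replicate 3 was left out, and Cd6, a relative of CD5 and the most abundant of the list at 147 FPKM, had 0.09 ± 0.06. Of 12 costimulatory and activation genes, mostly receptors, all were tested, 0 passed and 0 had an unadjusted p under 0.05, with a median of 0.10. The smallest p values belonged to Cd27 (0.16 ± 0.08), Cd40lg (0.20 ± 0.12) and Tnfrsf9 (0.12 ± 0.09), the gene of 4-1BB. Leaving out TCR alone replicate 1 lowered them to 0.09, 0.11 and 0.05, and leaving out TCR alone replicate 2 raised Cd40lg to 0.32 and Tnfrsf9 to 0.19.

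Downstream of the receptors, 31 genes of their signalling and turnover were tested and 0 passed the threshold, with 0 at an unadjusted p under 0.05 and a median of 0.04. Ubash3b, which encodes a phosphatase that dampens ZAP-70, had a log2 fold change of 0.19 ± 0.09, Zap70 itself 0.17 ± 0.09, and Ptpn6, the gene of the phosphatase SHP-1, 0.13 ± 0.08. Leaving out TCR alone replicate 1 lowered Zap70 to 0.09 and Ptpn6 to 0.06, and leaving out TCR+DMGV replicate 1 lowered Ubash3b to 0.12. The groups of these 3 genes, the ones of smallest p, did not overlap, which held for 3 of the 31 genes and for 8.86% of all tested genes. Of 36 transcription factors linked to activation or exhaustion 0 passed the threshold, 4 had an unadjusted p under 0.05 (Bach2, Nr4a1, Foxp3 and Nr4a2) beside 3.19% of all tested genes, and the median was 0.02. DESeq2 called 1 gene over all these lists, Bach2, with an adjusted p of 0.0464.

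Bach2, a repressor that restrains effector differentiation, had the smallest p of the transcription factors. It read 222, 179 and 94.7 CPM in TCR alone and 66.9, 68.8 and 94.4 CPM in TCR+DMGV. The groups did not overlap, but TCR alone replicate 3 was only 0.252 CPM above TCR+DMGV replicate 3. The log2 fold change was -1.11 ± 0.30 (edgeR, unadjusted p = 0.00749, adjusted p = 0.9995). Within each group the lowest Bach2 value came from a sample that stood apart. The estimate was -1.38 without TCR alone replicate 3, -1.02 without TCR+DMGV replicate 1 and -0.85 without TCR alone replicate 1. Nr4a1, an early target of TCR signals, read 215, 208 and 245 CPM against 302, 268 and 262 CPM, a log2 fold change of 0.32 ± 0.09 (adjusted p = 0.9995). Foxp3, the factor of regulatory T cells, read 27.8, 25.5 and 32.5 CPM against 36.2, 35.4 and 38.3 CPM, with 0.36 ± 0.11 (adjusted p = 0.9995). None of these 3 passed the adjusted threshold in edgeR. They were named for the smallest p of 36 genes, of which 4 had groups that did not overlap, beside 8.86% of all tested genes.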

How the data were processed

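Libraries of 6 samples were prepared with a kit for mRNA and sequenced on an Illumina Xten. Reads were cleaned by the authors (SOAPnuke 1.5.2), aligned (HISAT2 2.0.4) and quantified (StringTie 1.2.3). The submitters' processing notes name the build mm9. Whole-number counts were deposited for genes and for transcripts, and how coverage was turned into counts is not given in the sources used here. Deposited FPKM correct for length and depth, and the gene FPKM give the levels here. No column of the tables was left without a sample.

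Identifiers were matched without version to GENCODE M21 (GRCm38), which named 99.7% of 52550 genes and 99.6% of 131146 transcripts. Coordinates and GC content come from that annotation and promoters from RefSeq (GRCm38.p6), which are not the build of the notes. The main test was edgeR 4.0.16 (R 4.3.3), quasi-likelihood, two-sided, on all genes that pass filterByExpr, with TMM factors, Benjamini-Hochberg adjustment and a threshold of 0.05. Transcript counts were tested likewise. CPM carry the TMM factors, log2 CPM used a prior count of 2, and single values were compared with exact permutation tests (scipy 1.17.1), whose smallest p is 0.1 for 3 samples against 3. Alternatives used DESeq2 1.42.0 and limma 3.58.1.

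The members, the gene lists and the tests were chosen with earlier results of these data known. Every member was named. In the other lists the 3 genes of smallest p were named with any past the threshold, in marker lists the most abundant gene, for each member the 2 genes with the highest Pearson r, and transcripts with at least 10% of a gene's counts in the mean of a group. Other genes, markers and transcripts were named after their values were seen. The values of some marker genes are not reported here.

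On counts simulated from these samples with 200 genes changed by 1 on the log2 scale, edgeR recovered 46.5% among 14448 genes, and 8.82% of its calls had not been changed. In simulated transcript counts it recovered 0% at that size and 9.5% at 3 on the log2 scale. With no gene changed, edgeR called 0 genes and DESeq2 called 21.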

Additional observations from a re-analysis of the deposited data

How the results depend on the processing

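No member passed the threshold under any of 18 alternatives, and their median log2 fold change stayed above 0, between 0.06 and 0.12. These alternatives refit the same 6 samples or parts of them, and the median was not tested against 0. Genes past the threshold over the whole table, 2 in the main test, were 14 with DESeq2, 1 with library size alone, 1 with all genes that had a count, 0 on log2(FPKM + 1) and 0 on log2(FPKM + 0.1). Leaving out each sample in turn gave 0 to 5 genes (5 without TCR+DMGV replicate 1), and leaving out both samples that stood apart gave 12. In simulated counts with no gene changed DESeq2 called 21 genes. Over the other lists of the pathway DESeq2 called 1 gene, Bach2, where edgeR called 0.

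Whether samples of the same replicate number are paired is not given in the labels. The deviations of same-numbered samples from their group means correlated at -0.154, 0.121 and -0.148. Those of differently numbered samples correlated at -0.197 to 0.31, the highest value being that of the samples that stood apart. Since those samples shape the deviations, the correlations cannot decide whether the samples were paired. With the replicate number as a block the count of genes was 0, and it was 0 with block and GC correction together. No member was called in either fit.

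The direction of Btla and Havcr2, which were not called, turned with the setting. For Btla the log2 fold change was 0.00648 with a GC correction and 0.000561 with the block and the GC correction, and between -0.287 and 0.152 with a sample left out. For Havcr2 it was 0.00752, 0.00781 and between -0.0697 and 0.0702. Positive values of Btla came on leaving out replicate 1 (0.0499) or 2 (0.0692) of TCR alone or replicate 1 of TCR+DMGV (0.152), and those of Havcr2 on leaving out replicate 2 of TCR alone (0.0702) or replicate 1 (0.00863) or 3 (0.0199) of TCR+DMGV. Their transcripts also turned when a sample was left out, with ranges from -0.314 to 0.128 for Btla-202, from -0.288 to 0.235 for Btla-201 and from -0.084 to 0.0595 for Havcr2-201. The cause was not tested. Members with groups apart were 2 in CPM, and 1 in FPKM and 1 with library size alone, both scales added after the data were seen, as was the sum of transcript FPKM. In CPM 8.86% of all tested genes had such groups, and this share was not computed on the other scales.

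With 3 samples per group the intervals of Cd200, Ctla4 and Btla leave room for changes of over 1.5-fold, and a 2-fold change of a transcript was not recoverable in simulated data. The values of Havcr2 rest on 239 to 291 counts.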

Other observations

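Several receptors have an activating counterpart for the same ligand, and the levels of both were measured. Cd28, which shares CD80 and CD86 with CTLA-4, stood at 38.1 ± 13.5 FPKM in TCR alone and 36.5 ± 8.36 FPKM in TCR+DMGV (SD, n = 3), with a log2 fold change of -0.04 ± 0.30 (SE). It was low in the same samples as Ctla4 and Btla, at 23.2 FPKM in TCR alone replicate 3 and 27.1 FPKM in TCR+DMGV replicate 1. Cd226, which shares its ligand with TIGIT and CD96, stood at 20.9 ± 5.50 and 20.5 ± 3.29 FPKM, below Tigit in the mean of either group. No difference between DMGV and its absence passed the threshold for these genes in edgeR.

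Genes that mark activation differed widely in level. Cd69 read 21.6 ± 3.12 FPKM in TCR alone and 21.1 ± 3.91 FPKM in TCR+DMGV, and Fos 2.225 ± 0.204 and 2.479 ± 0.0824 FPKM. Others were more abundant in both groups. Il2ra, the gene of CD25, read 160.9 ± 7.74 FPKM in TCR alone and 149 ± 3.83 FPKM in TCR+DMGV, Tnfrsf4, the gene of OX40, 177 ± 22.8 and 193 ± 12.6 FPKM, and Irf4, a factor induced by TCR signals, 218 ± 16.3 and 223 ± 2.69 FPKM. Tox, a factor associated with exhausted T cells, was low at 4.03 ± 0.144 and 3.93 ± 0.130 FPKM, and Prdm1, the gene of BLIMP-1, lower at 0.796 ± 0.0637 and 0.655 ± 0.157 FPKM. Ikzf2, the gene of Helios, read 1.24, 1.48 and 0.978 FPKM in TCR alone and 1.03, 0.658 and 0.288 FPKM in TCR+DMGV. The groups overlapped, and the log2 fold change was -0.90 ± 0.41 with an adjusted p of 0.9995 in edgeR. These genes were chosen after their values were seen.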
